A study of Oryctolagus cuniculus with 6 samples.

Results

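The insulin-like growth factor (IGF) system was examined in the retinas of rabbits with proliferative vitreoretinopathy (PVR) and of normal rabbits through 10 genes chosen by name: the ligands IGF1 and IGF2, the receptors IGF1R and IGF2R, and the binding proteins IGFBP2 to IGFBP7. All 10 symbols were found among the 28788 genes of the deposited tables, and all 10 were among the 18697 genes that had enough counts to be tested. PVR is a scarring response in which cells form contractile membranes on the retina, and in this model the sclera of an adult rabbit eye was punctured, some vitreous was drawn off and platelet-rich plasma was injected in its place. Polyadenylated RNA was sequenced from 3 samples labelled normal and 3 labelled PVR, all retina, with no other treatment, strain, sex, age or time after injection given in the labels. The sources used here do not say whether the normal eyes received a sham puncture, or whether each sample was a separate animal, so the p-values measure the spread between these 6 samples.

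IGF1 and IGF2 are secreted peptides that act through IGF1R, a receptor tyrosine kinase that signals to PI3K, AKT and the MAP kinases. IGF2R binds IGF2 and takes it to the lysosome instead of passing on a growth signal. The binding proteins hold IGFs in tissue fluid, and proteases such as PAPPA release the ligand by cutting them. In the retina the system is known for its part in vessel growth and in the survival of neurons.

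Counted reads per sample ranged from 31904593 to 43035080. Rod genes gave the retinal identity of all 6 samples: the 10 genes of a rod list summed to between 41880 and 49281 CPM in the normal samples and between 29766 and 40764 CPM in PVR (CPM are counts scaled to a common library size with edgeR's TMM factors). Of the 10, edgeR gave 0 an adjusted p under 0.05, beside 1.7% of all genes tested. At an unadjusted p under 0.05 from edgeR there were 5, beside 21.2% of all genes tested. DESeq2 called 2, beside 10.1% of all genes. Log2 fold changes were negative for 9 of the 10 rod genes. One normal sample, replicate 2, stood apart by lens genes. A list of 9 matched lens genes summed to 32692 CPM there, to 15.6 and 12.2 CPM in normal replicates 1 and 3, and to between 261 and 300 CPM in the PVR samples. For IGF2, IGFBP5, IGFBP7, HTRA1 and PAPPA, values without this sample are given as well.

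IGF2 and IGFBP5 were lower in PVR, and they were the 2 members of 10 with an adjusted p under 0.05 (edgeR's quasi-likelihood test, Benjamini-Hochberg adjustment over all genes tested), against 1.7% of all genes tested in either direction and 0.615% in the lower direction. IGFBP5 alone also passed the second threshold of the study's methods, a log2 fold change beyond 1, which 1.01% of all genes passed together with the first. DESeq2, the tool named in the study's methods, called the same 2 members at an adjusted p under 0.05, against 10.1% of all genes. At an unadjusted p under 0.05 from edgeR there were also only these 2 of the 10 members, a share near the 21.2% of all genes tested. With edgeR and with DESeq2, 0 members rose past the test, and 0 had a higher level at an unadjusted p under 0.05 from edgeR. Of all genes, 1.09% rose past the edgeR test, a share too low to expect any among 10 members. Log2 fold changes were negative for 7 members and positive for 3, with a median of -0.14, beside -0.0088 over all genes tested. Levels are given as FPKM, which corrects for gene length and sequencing depth, and fold changes come from the counts.

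**Figure D1:**
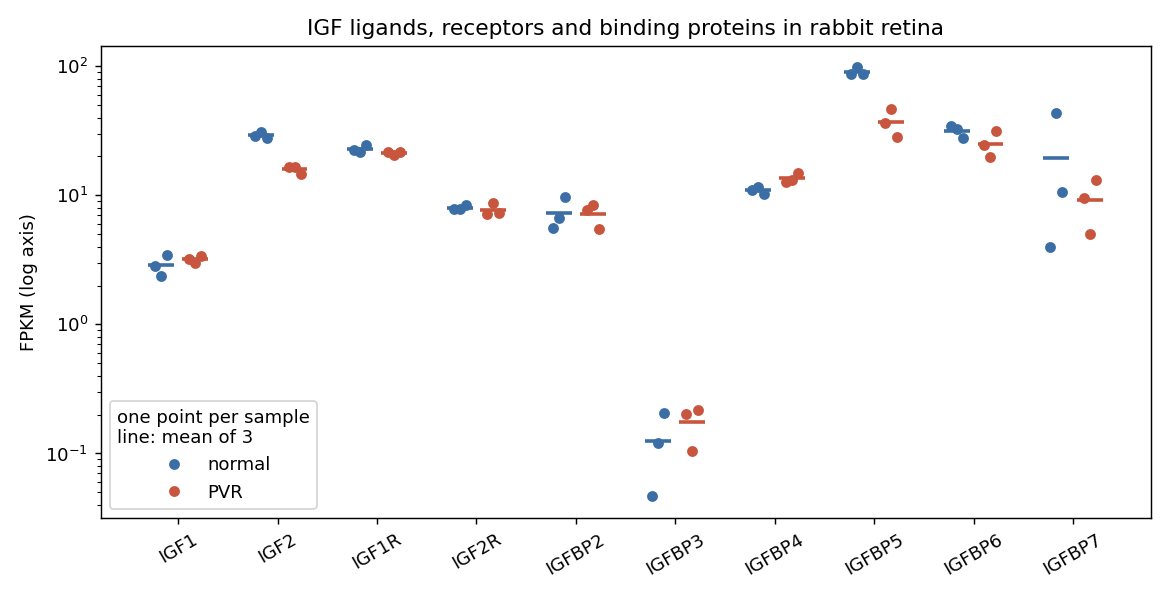
FPKM of the 10 genes on a log axis, with 1 point per sample and a line at the mean of 3 samples for each group. The groups stand apart downwards for IGF2 and IGFBP5 and upwards for IGFBP4, whereas the IGFBP7 points of the normal samples spread from 3.99 to 43.7.

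Of the ligands, IGF2, a growth factor best known from fetal growth, was the more abundant per length. Its FPKM was 28.6, 30.7 and 28.0 in normal replicates 1, 2 and 3 and 16.6, 16.7 and 14.5 in PVR replicates 1, 2 and 3. Every PVR sample lay well below every normal sample, and the samples of each group lay close together. The group means were 29.1 ± 1.41 (SD, n = 3) and 15.9 ± 1.22 (SD, n = 3), so that the mean in normal retinas was 1.83 times that in PVR. IGF2 fell by 0.94 on the log2 scale (standard error 0.086, 95% interval -1.14 to -0.74, adjusted p = 0.0066 from edgeR), and stood at position 19 of all genes tested when ranked by p. Without PVR replicate 1 the log2 fold change of IGF2 was -0.97 with an adjusted p of 0.0635, the 1 of 15 other settings in which it was not under 0.05.

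IGF1, the ligand through which growth hormone acts in many tissues, had an FPKM of 2.81, 2.36 and 3.43 in normal retinas and 3.21, 3.01 and 3.42 in the PVR samples. The groups overlapped, and the highest value of all was a normal one. The log2 fold change of IGF1 was 0.10 (95% interval -0.20 to 0.40, adjusted p = 0.681 from edgeR). In each sample IGF2 was above IGF1 per length. The ratio of the FPKM of IGF2 to that of IGF1 was 10.2, 13.01 and 8.16 in normal retinas and 5.18, 5.54 and 4.25 in PVR, without overlap. These ratios use the lengths implied by the authors' FPKM values, 21952 bases for IGF1 and 4096 for IGF2. Other lengths alone would shift them alike in all samples, but another gene model could also change the counts, which was not tested.

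The receptors moved little. IGF1R had 10834, 10943 and 12167 counts in normal retinas and 8623, 8237 and 11534 in PVR, which made it one of the most deeply counted members. Its FPKM was 22.7 ± 1.47 (SD, n = 3) in normal retinas and 21.2 ± 0.682 (SD, n = 3) in PVR, with overlapping groups. The log2 fold change of IGF1R was -0.17 (95% interval -0.36 to 0.02, adjusted p = 0.284 from edgeR). On the TMM-scaled CPM scale its groups did not overlap, with means of 289.9 and 258, so its separation depended on the scaling. IGF2R, also known as the cation-independent mannose 6-phosphate receptor, which carries lysosomal enzymes, had an FPKM of 7.84, 7.84 and 8.43 in normal retinas and 7.18, 8.79 and 7.33 in PVR. The highest and the lowest values were both PVR samples. The log2 fold change of IGF2R was -0.12 (95% interval -0.33 to 0.09, adjusted p = 0.458 from edgeR). The intervals of both receptors leave out a change of the size measured for IGF2.

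IGFBP5, a binding protein that also attaches to extracellular matrix, was the most abundant member per length in both groups. Its FPKM was 87.1, 98.0 and 87.0 in normal replicates 1, 2 and 3, and 36.5, 46.5 and 28.4 in PVR replicates 1, 2 and 3. All PVR samples lay below all normal samples, and they were further apart from each other than the normal samples were, with a coefficient of variation of 24.5% against 7.01%. The counts behind these values were between 20288 and 23928 in normal retinas and between 6954 and 9000 in PVR, so counting error was small. The mean in normal retinas was 2.44 times that in PVR, 90.7 ± 6.36 against 37.1 ± 9.09 (SD, n = 3 in each group). IGFBP5 fell by 1.36 on the log2 scale (standard error 0.17, 95% interval -1.77 to -0.96, adjusted p = 0.0184 from edgeR). Leaving out single samples kept its log2 fold change between -1.55 and -1.21, but the adjusted p was 0.0575 without normal replicate 1, 0.062 without normal replicate 2 and 0.151 without PVR replicate 1. It was under 0.05 in the 12 other settings tried.

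**Figure D2:**
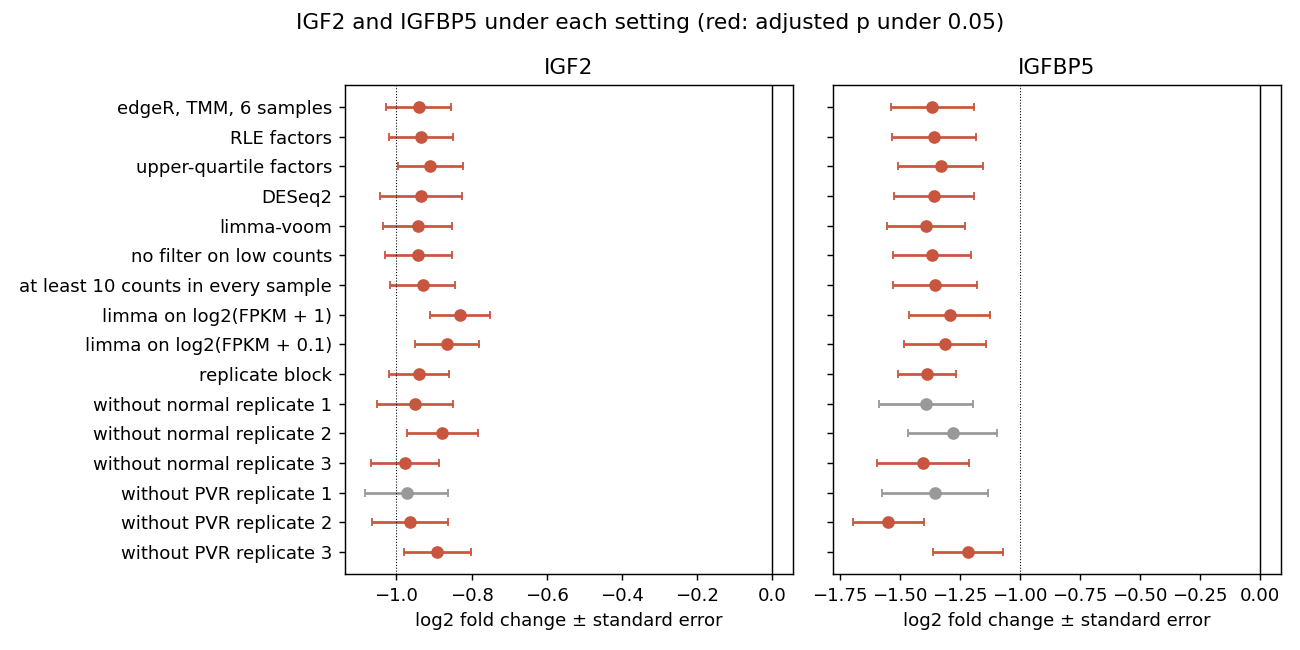
Log2 fold change with its standard error for IGF2 and IGFBP5 under each setting, red where the adjusted p was under 0.05; the dotted line marks a log2 fold change of -1. IGF2 stayed between -0.98 and -0.83 and IGFBP5 between -1.55 and -1.21, and the grey points are tests with 1 sample left out.

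IGFBP5 and IGFBP2 are adjacent protein-coding genes in the RefSeq annotation of the rabbit assembly mOryCun1.1, which was used for names and neighbours only. IGFBP2, a binding protein common in nervous tissue, had an FPKM of 5.63, 6.69 and 9.74 in normal retinas and 7.73, 8.40 and 5.51 in PVR. Its groups overlapped fully, and the log2 fold change was -0.10 (95% interval -0.67 to 0.48, adjusted p = 0.839 from edgeR). The interval of IGFBP2 does not reach that of IGFBP5.

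IGFBP4, a binding protein cut by PAPPA, was the only member whose FPKM was higher in every PVR sample than in every normal one. Its FPKM was 10.9, 11.7 and 10.3 in normal retinas and 12.8, 13.2 and 14.9 in PVR. The log2 fold change was 0.24 (95% interval -0.04 to 0.52, adjusted p = 0.295 from edgeR). IGFBP4 did not pass the test here or in any of the 15 other settings. By TMM-scaled CPM, 4 of the 10 members had groups that did not overlap (IGF2, IGF1R, IGFBP4 and IGFBP5), against 28% of all genes tested.

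IGFBP6, a binding protein with a preference for IGF2, had an FPKM of 34.7, 32.8 and 27.7 in normal retinas and 24.5, 19.8 and 31.4 in PVR. PVR replicates 1 and 2 lay below all normal samples, and PVR replicate 3 lay among them. The log2 fold change of IGFBP6 was -0.40 (95% interval -0.85 to 0.05, adjusted p = 0.278 from edgeR). IGFBP3, the main IGF carrier of blood, was the least abundant member. It had 7, 19 and 32 counts in normal retinas and 25, 13 and 36 in PVR. Its 95% interval on the log2 scale ran from -1.004 to 1.86, so it includes both no change and a rise as large as the fall of IGFBP5, and the normal samples alone differed by 4.45 times in FPKM (adjusted p = 0.712 from edgeR).

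IGFBP7, which binds IGFs weakly and is known from vessel walls, varied most within a group. It had 175, 2004 and 479 counts in normal replicates 1, 2 and 3, and 340, 182 and 635 in PVR replicates 1, 2 and 3. Its FPKM was 43.7 in normal replicate 2, 10.9 times the 3.99 of normal replicate 1, and the PVR samples lay between 5.004 and 13.1. With all samples the log2 fold change of IGFBP7 was -1.16 (95% interval -3.03 to 0.71, adjusted p = 0.431 from edgeR). Without normal replicate 2 it was 0.30 (adjusted p = 0.799 from edgeR). Normal replicate 2 is the sample with the high lens genes, and their part in its IGFBP7 level was not tested. In mOryCun1.1 the gene also overlaps POLR2B and a long noncoding RNA, and without a stated strand setting reads of overlapping genes cannot be told apart. IGF1 and IGFBP4 overlap a long noncoding RNA there as well.

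**Figure D3:**
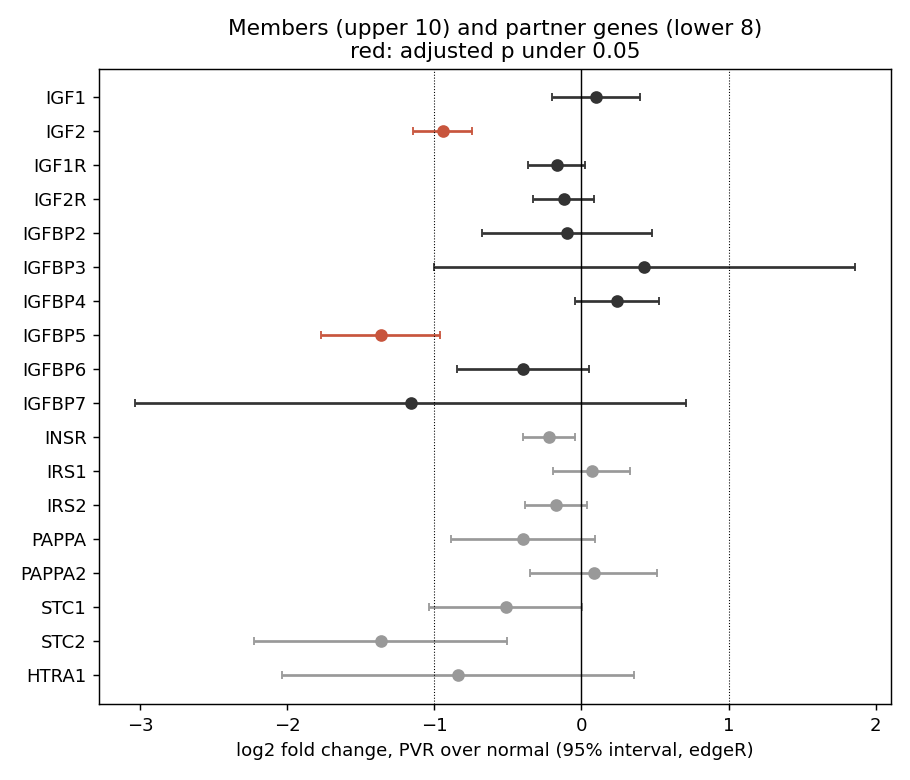
Log2 fold change of PVR over normal with its 95% interval from edgeR for the 10 genes (upper part) and 8 partner genes (lower part), with dotted lines at -1 and 1. The intervals of IGF2 and IGFBP5 (red) lie wholly below 0, those of the other members include 0, and the widest belongs to IGFBP7.

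The make-up of the binding protein transcripts differed between the groups by FPKM. The 6 binding proteins summed to 142, 193 and 146 FPKM in normal retinas and to 91.1, 93.0 and 93.5 in PVR. Without IGFBP7 the normal sums were 138, 149 and 135, and the PVR sums were 81.6, 88.0 and 80.4, so the lower sums in PVR did not rest on the IGFBP7 level of normal replicate 2. Both kinds of sum include IGFBP5, so they are not separate from its fall. The mean FPKM was 90.7 in normal retinas and 37.1 in PVR for IGFBP5, beside 160 and 92.6 for the sum of all 6. IGFBP5 supplied 61.2%, 50.8% and 59.8% of the sum in normal retinas and 40.0%, 50.01% and 30.4% in PVR. The share of IGFBP4 was 6.94% ± 0.82 (SD, n = 3) in normal retinas and 14.7% ± 1.05 (SD, n = 3) in PVR. A share can rise because the rest of the sum falls, and the level of IGFBP4 itself did not pass the test. The summed binding proteins were 5.0 ± 0.728 (SD, n = 3) times the summed ligands in normal retinas and 4.84 ± 0.324 (SD, n = 3) times in PVR, a difference within the spread between samples. These sums and shares are descriptions and were not tested.

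**Figure D4:**
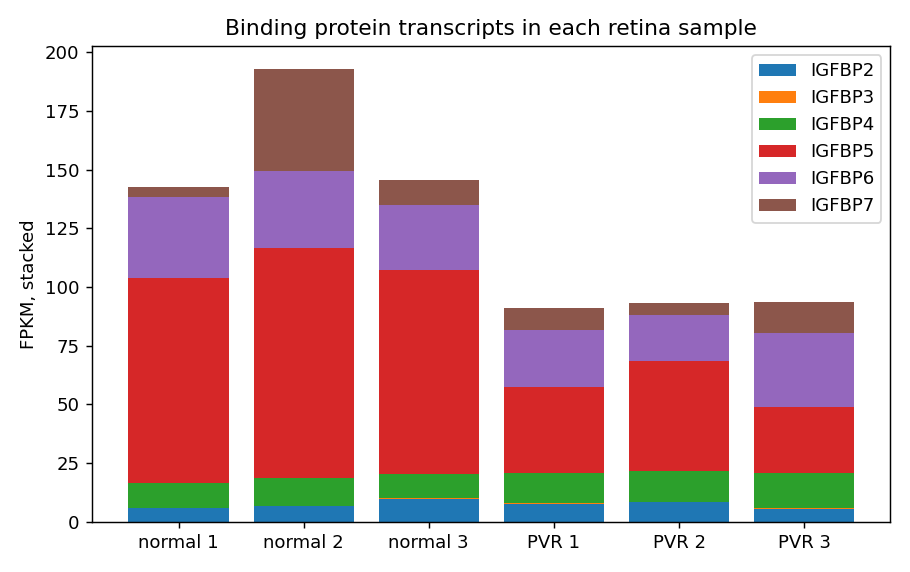
Stacked FPKM of IGFBP2 to IGFBP7 in each of the 6 samples. The PVR bars end between 91.1 and 93.5, below the normal bars at 142 to 193, and the IGFBP5 segment is the part that shrinks most while the IGFBP7 segment is widest in normal replicate 2.

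In the order of levels per length, IGFBP5 stood clear of the next gene, IGFBP6, in normal retinas, whereas in PVR the samples of IGFBP5 and IGFBP6 overlapped. In the normal samples IGFBP6 and IGF2 overlapped at positions 2 and 3, and IGF1R came next. In PVR, IGF2 was below IGF1R in every sample, with 16.7 as its highest and 20.4 as the lowest FPKM of IGF1R. In the normal samples the order of this pair was the other way round, with IGF2 at 28.0 or more and IGF1R at 24.3 or less. The order of genes depends on the lengths implied by the authors' FPKM values, here 4096 bases for IGF2 and 12476 for IGF1R. Other lengths could change it. IGF1 and IGFBP3 were at the bottom of the order in both groups.

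Genes that act on IGFs outside the cell were measured next. PAPPA, a protease that cuts IGFBP4 and IGFBP5, had 1333, 2535 and 1809 counts in normal retinas and 1149, 1208 and 1712 in PVR. Its log2 fold change was -0.40 (adjusted p = 0.315 from edgeR), and -0.12 without normal replicate 2 (adjusted p = 0.702 from edgeR). PAPPA2, its relative, changed by 0.08 on the log2 scale (adjusted p = 0.816 from edgeR). STC2, a stanniocalcin that blocks PAPPA, had 300, 316 and 167 counts in normal retinas and 59, 77 and 161 in PVR. PVR replicate 3 was close to normal replicate 3, and on CPM the groups did not overlap. The log2 fold change of STC2 was -1.37 (standard error 0.37), with an adjusted p of 0.106 from edgeR and 0.00715 from DESeq2. For its relative STC1 the log2 fold change was -0.51 (adjusted p = 0.241 from edgeR). HTRA1, a secreted serine protease known to cut IGFBP5, had 1082, 3983 and 1135 counts in normal retinas and 1012, 697 and 1621 in PVR, with its highest value, like that of IGFBP7, in normal replicate 2. Its log2 fold change was -0.84 with all samples (adjusted p = 0.378 from edgeR) and 0.069 without normal replicate 2 (adjusted p = 0.904 from edgeR), so the lower mean in PVR rested on that sample. IGFALS, which joins IGFBP3 in the large serum complex, had 274 to 367 counts in normal retinas and 333 to 397 in PVR (log2 fold change 0.33, adjusted p = 0.305 from edgeR), and IGFBP1 stood at 15 counts or fewer in every sample.

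INSR, the insulin receptor, which pairs with IGF1R in hybrid receptors, had an FPKM of 24.2, 23.1 and 26.2 in normal retinas and 21.8, 22.1 and 22.4 in PVR. The PVR samples were lower in each case, and the log2 fold change was -0.22 (95% interval -0.40 to -0.04), with an adjusted p of 0.167 from edgeR. The ratio of IGF1R to INSR in FPKM was 0.926 ± 0.00517 (SD, n = 3) in normal retinas and 0.959 ± 0.0362 (SD, n = 3) in PVR. IRS1 and IRS2, the docking proteins of both receptors, had log2 fold changes of 0.07 and -0.17 (adjusted p = 0.751 and 0.309 from edgeR).

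Over 5 lists of IGF regulators, receptor adaptors, the PI3K, AKT, mTOR and FOXO branch, the RAS and MAP kinase branch and the IGF2 mRNA binding proteins, 72 of 81 genes were tested and 0 had an adjusted p under 0.05 with edgeR. At an unadjusted p under 0.05 there were 20 (27.8%, beside 21.2% of all genes tested). DESeq2 called 9 of the 70 for which it gave an adjusted p (12.9%, beside 10.1% of all genes with one). The median log2 fold change of the 72 genes was -0.07. The 9 genes, named after their values were seen, were STC2, EIF4EBP1, GSK3A, DUSP6 and IGF2BP2 on the lower side and GRB14, SOS1, PIK3CB and MAP2K1 on the higher side. Of these, GRB14, an adaptor that binds the insulin receptor and dampens its signal, had 38, 59 and 29 counts in normal retinas and 130, 241 and 75 in PVR (log2 fold change 1.98, adjusted p = 0.111 from edgeR and 0.00516 from DESeq2). EIF4EBP1, the translation repressor that mTOR phosphorylates, had 189, 274 and 164 counts in normal retinas and 98, 95 and 106 in PVR (log2 fold change -0.96, adjusted p = 0.11 from edgeR and 0.0245 from DESeq2). For DUSP6, a phosphatase of the MAP kinases ERK1 and ERK2, the log2 fold change was -0.43 (adjusted p = 0.0903 from edgeR and 0.0198 from DESeq2). For IGF2BP2, which binds IGF2 mRNA, it was -0.38 (adjusted p = 0.112 from edgeR and 0.0475 from DESeq2), while it was 0.07 for IGF2BP3 and IGF2BP1 had at most 4 counts in any sample.

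Markers of several retinal cell types also moved between the groups, and in bulk tissue fewer cells of a type and less RNA per cell cannot be told apart. Beside the counts given below, 1.09% of all genes tested rose and 0.615% fell at an adjusted p under 0.05 from edgeR. Of 10 Mueller glia genes, 2 fell, 1 rose and 7 did not pass the test, and their summed level overlapped between the groups (3478 to 4225 CPM in normal retinas, 3952 to 4158 in PVR). Those that fell were GLUL, the glutamine synthetase of these glia, whose log2 fold change was -1.11 (adjusted p = 0.0125 from edgeR), and RLBP1, a retinoid carrier, for which it was -0.89 (adjusted p = 0.0294 from edgeR), and the one that rose was CLU, a secreted chaperone. The 10 pigment epithelium genes summed to between 188 and 422 CPM in normal retinas and between 102 and 144 in PVR, and of the 8 tested LRAT and TTR fell. The 10 oligodendrocyte genes summed to between 217 and 1167 CPM in normal retinas and between 124 and 149 in PVR, and of the 8 tested MAG, MOBP and SOX10 fell. Of 12 endothelial genes, 2 fell, none rose and 10 did not pass the edgeR test. DESeq2 called 4 of the 12, 3 lower and 1 higher, beside 10.1% of all genes. VWF had 228, 620 and 950 counts in normal retinas and 14, 13 and 25 in PVR. The summed level, by contrast, most of it from FLT1 and KDR, was 610 to 664 CPM in normal retinas and 706 to 728 in PVR. CDH5 was at 24, 41 and 103 counts in normal retinas and at 0, 0 and 1 in PVR, and PECAM1 at 39, 84 and 69 beside 51, 90 and 67. RGS5, a pericyte gene, had 133, 485 and 953 counts in normal retinas and 3, 10 and 10 in PVR, and was the 1 of 10 pericyte and smooth muscle genes that passed the test, while PDGFRB overlapped between the groups.

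Spread among the normal samples was described for members and markers. The highest FPKM was 1.10 times the lowest for IGF2 and 1.13 times for IGFBP5. By CPM, the pigment epithelium and oligodendrocyte sums, VWF and RGS5 differed by more than 2-fold among these samples. The highest CPM was 1.34 times the lowest for GLUL, 1.30 times for RLBP1 and 1.21 times for the Mueller glia sum. That sum overlapped between the groups, and of the 10 Mueller glia genes 5 had positive and 5 negative log2 fold changes. The log2 fold changes without the lens-rich normal replicate 2 were -0.88 for IGF2 and -1.28 for IGFBP5, with adjusted p of 0.0241 and 0.062 from edgeR. The part of changed cell make-up in the lower IGF2 and IGFBP5 levels was not tested. The remaining marker lists held no gene with an adjusted p under 0.05 (astrocyte, rod, stromal fibroblast, macrophage and microglia, platelet and lens, edgeR), while 18 of their 48 tested genes had an unadjusted p under 0.05 (37.5%, beside 21.2% of all genes tested) and DESeq2 called 9 of the 39 for which it gave an adjusted p (23.1%, beside 10.1%). All 11 macrophage and microglia genes had positive log2 fold changes, from 0.48 to 1.61, and the summed level was 36.3 to 75.1 CPM in normal retinas and 89.4 to 114 in PVR. The stromal fibroblast sum was 206 to 213 CPM in normal retinas and 269 to 474 in PVR, with COL1A1 at 1817, 190 and 4485 counts in PVR replicates 1, 2 and 3 and DCN overlapping between the groups. The platelet genes summed to 5.55 to 9.43 CPM in normal retinas and 6.81 to 7.98 in PVR, where platelet-rich plasma had been injected. The sum lacks PF4, which was not matched, and joins genes that went opposite ways. Of the 5 tested, 2 had positive and 3 negative log2 fold changes.

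**Figure D5:**
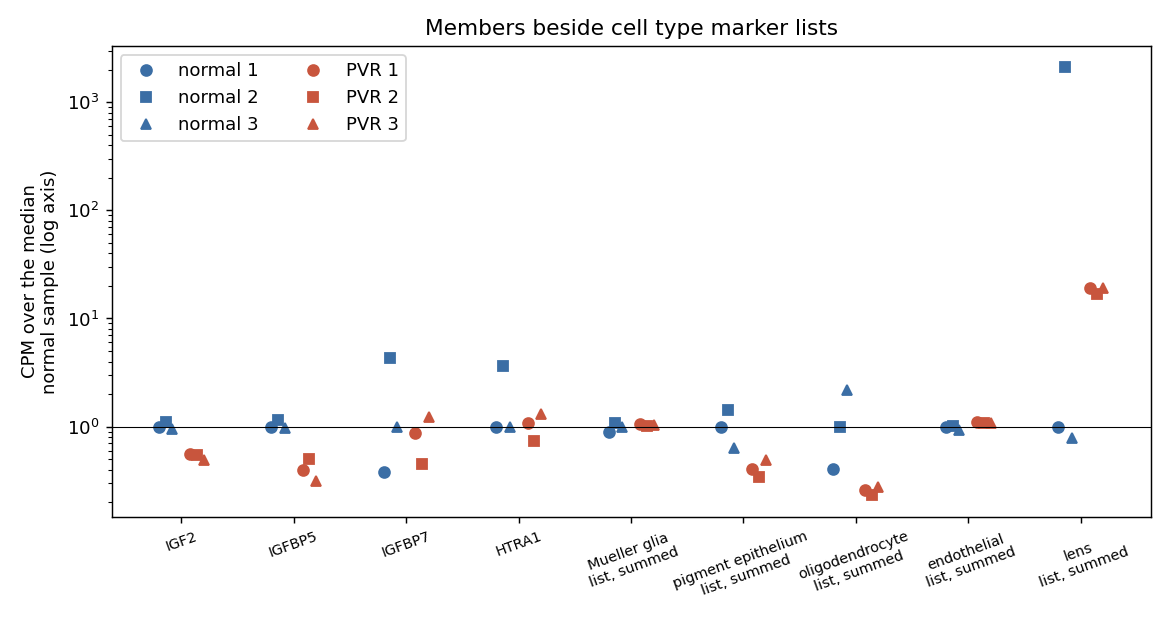
TMM-scaled CPM of IGF2, IGFBP5, IGFBP7 and HTRA1 and summed CPM of 5 marker lists in each sample, divided by the median normal sample, on a log axis. The normal points of IGF2, IGFBP5 and the Mueller glia and endothelial lists lie close together. Those of IGFBP7, HTRA1 and the pigment epithelium, oligodendrocyte and lens lists spread. Normal replicate 2 is the highest normal point for all but the oligodendrocyte list, and stands out most for IGFBP7, HTRA1 and the lens list.

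By the Pearson correlation of log2 CPM over the 6 samples, the 3 genes most like IGF2 among 9514 with a symbol and a mean log2 CPM of at least 3 were CORO2B (0.998), NTRK2 (0.997) and GOLGA2 (0.996). Among those most like IGFBP5 were HKDC1 (0.995) and ZNRD2 (0.995). With 3 samples in each of 2 separated groups, such values reflect mainly the step between the groups. The steps differed in size: the log2 fold changes of these 5 genes ranged from -0.68 for HKDC1 to -0.28 for NTRK2, all smaller than those of IGF2 and IGFBP5. HKDC1, a hexokinase, was the only one of the 5 with an adjusted p under 0.05 (0.0249 from edgeR).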

How the data were processed

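RNA from 3 normal and 3 PVR retina samples was grouped by the sample titles. HISAT2 alignment to OryCun2.0 and htseq-count were used by the authors, who deposited the raw counts per gene and FPKM values. The annotation release and strand setting are not given in the sources used here. Counts divided by FPKM gave 1 length per gene in every sample (largest relative difference 4.24e-09). Each sample was counted as a replicate by its title. Samples of one group differed beyond counting noise (chi-square per degree of freedom from 20.9 to 198), which does not show that they came from separate animals.

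Counts were tested in R 4.3.3 with edgeR 4.0.16 (default filter, TMM factors, quasi-likelihood test on the condition, Benjamini-Hochberg adjustment over 18697 genes). Calls required an adjusted p under 0.05 and, where stated, a log2 fold change beyond 1. The standard error is the fold change divided by the square root of F. With 3 samples against 3, an exact permutation test cannot give a p under 0.1, so none was used. The 15 other settings were RLE and upper-quartile factors, DESeq2 1.42.0 (the study's tool, on the same filtered genes), limma-voom (limma 3.58.1), no filter, at least 10 counts in every sample, limma on log2 FPKM with 1 or 0.1 added, the replicate number as a block, and removal of each sample in turn. The tests were checked on simulated counts, where edgeR made more false calls than the nominal rate and missed most 2-fold changes. A called gene, IGF2 and IGFBP5 included, may thus be less certain than its adjusted p states. A gene without a call may still differ.

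The members and the 16 further lists were chosen with earlier results of these data known. List genes were matched by symbol or, for 5, by RefSeq gene identifier, 180 of 188 in all. Named are the members, pathway list genes with an adjusted p under 0.05, fixed partner and marker genes, and the 3 genes most like each called member, of which 1 is not reported here. IGFALS, IGFBP1, IGF2BP1, IGF2BP3, CLU, FLT1, KDR, LRAT, TTR, MAG, MOBP, SOX10 and the DESeq2 calls were named after their values were seen. Of the fixed names, PF4 was not matched. Counts of members by adjusted p alone were added after the data were seen. Depth limits cover counting error only. No sequence was used here.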

Additional observations from a re-analysis of the deposited data

How the results depend on the processing

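IGF2 and IGFBP5 were lower in PVR under all 15 other settings, with log2 fold changes from -0.98 to -0.83 and from -1.55 to -1.21. The adjusted p of IGF2 was under 0.05 in 14 of them and that of IGFBP5 in 12, and each exception was a test with 1 sample left out. The number of members past both thresholds was 1 in every setting with all samples, and from 0 to 1 with a sample left out. The number by adjusted p alone was from 0 to 2 with a sample left out. The direction of 3 members that did not pass the test turned with the sample left out: log2 fold changes ran from -0.0041 to 0.24 for IGF1, from -0.25 to 0.14 for IGFBP2 and from -1.64 to 0.30 for IGFBP7. No other member passed the test in any setting. In a setting added after the data were seen, without normal replicate 2, the log2 fold change of HTRA1 was 0.069 in place of -0.84.

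Over all genes, 129 were higher and 59 lower past both thresholds. These numbers were 519 and 212 with DESeq2, and 68 and 19 with limma on log2(FPKM + 1). The number lower was 37 with limma-voom and 31 with at least 10 counts in every sample, which tests fewer genes. Leaving out single samples gave from 16 to 373 higher and from 6 to 159 lower, the fewest without PVR replicate 1. The cause of these differences was not tested. With the replicate block the numbers were 56 and 26, while IGF2 and IGFBP5 kept adjusted p of 0.019 and 0.0211. Same-numbered samples did not deviate together (correlations -0.013, 0.0734 and 0.0417), so the numbers were not taken as pairs. IGFBP3, at 7 to 36 counts, had few counts and a wide spread between samples, and their parts in its wide interval were not separated.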
